A study of Mus musculus with 6 samples.

Results

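The genes described are 8 markers and regulators of stem and progenitor cells: Lgr5, Tnfrsf19, Lrig1, Axin2, Ascl2, Prom1, Bmi1 and Rnf43. They were chosen by name, as every probe on the array that carried one of the 8 symbols and was not a control. That gave 13 probes, 2 for each of 5 genes and 1 for each of the other 3, among 39399 probes of 31689 genes and unnamed transcripts. RNA came from the mucosa of the glandular stomach, freed of its muscle, of C57BL/6J mice. A4gnt-null mice of 5, 10 and 50 weeks were set against wild-type mice of the same ages, with 1 mouse and 1 one-colour array per genotype and age. A4gnt encodes the glycosyltransferase that adds terminal α1,4-linked N-acetylglucosamine to the sugar chains of gastric gland mucin. The study's title gives its question as the part of gland mucin in preventing gastric cancer. The labels do not say how the null allele was made or whether any mice were littermates.

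Wnt ligands bind Frizzled receptors and Lrp co-receptors on the cell surface, which stabilises beta-catenin and lets it switch on target genes with TCF factors. Lgr5 is a receptor for R-spondins, which raise the Wnt response by taking Rnf43 and Znrf3 out of action, the ubiquitin ligases that remove Frizzled. In the mouse stomach, Lgr5 marks cells at the base of antral glands and some chief cells of the corpus, and Tnfrsf19 (Troy) marks chief cells that can act as stem cells.

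The A4gnt probe gave 2.30, 2.94 and 2.11 units at 5, 10 and 50 weeks in null mucosa, not well above background, against 165, 325 and 264 units in wild-type mucosa. These signals fit the genotype labels of all 6 arrays. Signals are the scanner's background-subtracted units. Levels below are log2 of the signal minus log2 of the array's 75th percentile (252.8 to 402.8 units), so that a level of 0 has the brightness of that percentile. The number of arrays limits the precision: replicate spots of 1 array had a median log2 SD of 0.22 to 0.30 under 30 units and of 0.05 to 0.06 over 300 units. All wild-type arrays lay on 1 slide and all null arrays on another, so slide and genotype cannot be told apart. The 6 arrays also differed in markers of neighbouring tissue. The mean log2 level of 6 pancreas genes was 3.76, -1.22 and -0.70 in null mucosa and 4.63, -0.54 and 2.93 in wild-type mucosa at 5, 10 and 50 weeks. The mean of 5 liver genes was highest in the wild-type mouse of 10 weeks, at 3.40, and that of 6 smooth muscle genes ran from -1.10 in wild type at 5 weeks to 2.24 in wild type at 50 weeks. The genotype difference of each of the 8 genes is therefore also given with an age's pair of mice left out, and that of another gene where this turned its sign or moved it over 1.5 times.

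The array reads each gene through short probes, and where a gene has 2, their agreement bears on its values. The first 30 of the 60 bases of 6 probes are shown, because the clearest differences, and the one disagreement, rest on them. Positions are the array design's, on mouse build mm9, and the base number is where the probe starts in the transcript.
Tnfrsf19, base 4377: atggaatatattttgaatcgcaggattttc
Tnfrsf19, base 1946: aagccaaggaggctgggaagacagggaaaa
Prom1, base 3686: tgatgtgtgtcatcagcctgtcctgatgtt
Prom1, base 2436: acgaagaagtttgggaaaacaatactaggc
Axin2, base 4196: cttggtacaataattattgtaattaagaga
Axin2, base 1971: tcctgggggaacagattattattgctactc
The Tnfrsf19 probes lie at chr14:61582873-61582932 and chr14:61589667-61589726, and the Prom1 probes at chr5:44384861-44384920 and chr5:44397410-44397469, all on the minus strand. The Axin2 probes lie at chr11:108812034-108812093 and chr11:108803927-108803986 on the plus strand. The 2 Axin2 probes differ in composition: the base-4196 probe holds 20% G and C and a stop codon in each of its 3 frames, and the base-1971 probe holds 48.3% G and C and no stop codon in any frame.

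No member passed the test of the genotype. With age as a factor, limma gave 0 of 8 genes an adjusted p under 0.05, and 0% of the 17858 genes tested, higher or lower, reached it. At an unadjusted p under 0.05 limma called 2 of the 8, Tnfrsf19 lower and Prom1 higher in null mucosa, against 23.6% of all genes. The median difference over the 8 was 0.01 on the log2 scale and over all genes tested -0.03, and the median size of the difference, sign aside, was 0.21 over the 8 and 0.25 over all genes. As a group these genes were thus no farther from wild type than the array as a whole.

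**Figure D1:**
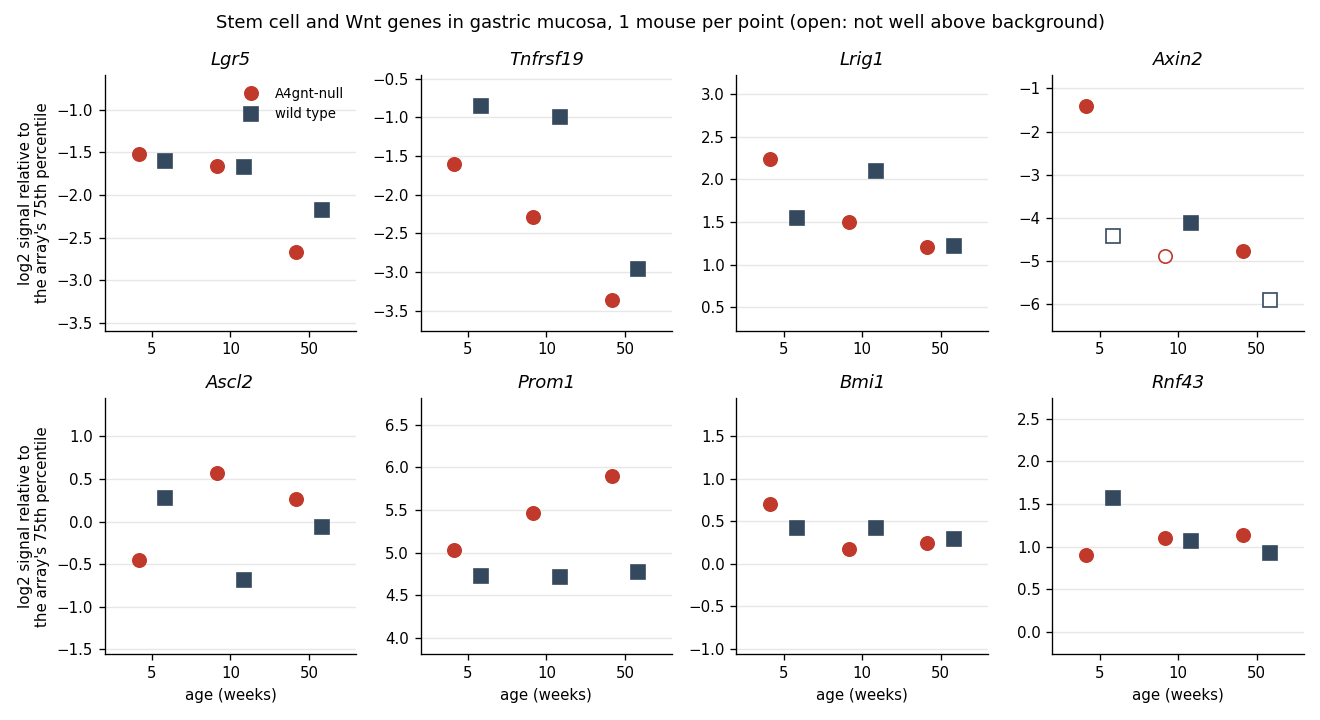
Level of each of the 8 genes by age in weeks (x) as log2 signal relative to the array's 75th percentile (y), with A4gnt-null mice as circles on the left and wild-type mice as squares on the right, 1 mouse per point; open points are not well above background. Prom1 is the gene whose 3 null points lie above all 3 wild-type points, and Lgr5, Tnfrsf19 and Lrig1 are lowest at 50 weeks in both genotypes.

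Tnfrsf19, a receptor of the tumour necrosis factor family and a Wnt target in the gut, was lower in null mucosa at each age. By its brighter probe it had 83.4, 67.1 and 39.3 units at 5, 10 and 50 weeks in null mucosa, against 142, 179 and 37.3 units in wild-type mucosa. After scaling, the levels were -1.60, -2.29 and -3.36 in null mucosa and -0.85, -0.99 and -2.96 in wild-type mucosa. The genotypes overlapped because the wild-type mouse of 50 weeks lay below the null mice of 5 and 10 weeks. The null level was 1.68-fold lower at 5 weeks, 2.45-fold lower at 10 weeks and 1.32-fold lower at 50 weeks, each 1 mouse against 1 mouse. Over the 3 ages the log2 difference was -0.81 ± 0.21 (SE), with a limma p of 0.017 and an adjusted p of 0.166, and with 1 age pair left out it was -1.02 to -0.57. It was the single member lower at all 3 ages, and Prom1 the single one higher at all 3, where 26.1% of all genes lay each way. The second probe gave 23.3, 12.8 and 8.01 units in null mucosa and 35.8, 37.7 and 11.4 units in wild-type mucosa. Its values at 50 weeks were not well above background in either genotype, and at 10 weeks the null signal was also not, which makes the fold there at least 2.71-fold lower. Both probes thus gave the same direction at 5 and 10 weeks, and at 50 weeks the brighter probe alone could measure the gene. Fewer cells of a type and less RNA per cell cannot be told apart in whole mucosa.

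Markers of chief and parietal cells were also lower in the null mucosa. Of 6 chief cell genes, 5 were lower at all 3 ages, and their summed level was 418 to 1082 times the 75th percentile in null mucosa, against 1042 to 1596 times in wild-type mucosa. All 8 parietal cell genes were lower at all 3 ages, with a summed level of 214 to 625 in null mucosa and 484 to 747 in wild-type mucosa. Markers of neighbouring tissue were lower too: of 6 pancreas genes 4 were lower and 1 higher at all 3 ages, and of 5 liver genes 1 was lower. The median log2 genotype difference was -0.93 for chief cell, -1.14 for parietal cell, -2.16 for pancreas and -3.14 for liver markers. Of all genes tested, 26.1% were lower at all 3 ages. All of these chief and parietal cell markers were well above background on at least 1 array. Their part in the Tnfrsf19 difference was not tested.

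Tnfrsf19 had the largest age difference of the members that were above background on all arrays. At 50 weeks it was 3.38-fold lower than at 5 weeks in null mucosa and 4.30-fold lower in wild-type mucosa. Over both genotypes the log2 difference of 50 minus 5 weeks was -1.93 ± 0.26 (SE), with a limma p of 0.0015 and an adjusted p of 0.217. With normexp background correction it was -1.08. In this contrast limma gave 2 of 8 members, Tnfrsf19 and Lgr5, an unadjusted p under 0.05, against 19.1% of all genes. Between 5 and 10 weeks the null level was 0.69 lower on the log2 scale and the wild-type level 0.14 lower. Most of the wild-type difference therefore lay between 10 and 50 weeks.

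Lgr5 itself lay close together in the genotypes at 5 and 10 weeks. It had 88.4, 104 and 63.6 units at 5, 10 and 50 weeks in null mucosa and 84.5, 112 and 63.9 units in wild-type mucosa. The scaled levels were -1.52, -1.66 and -2.66 in null mucosa and -1.60, -1.67 and -2.18 in wild-type mucosa, so the 2 genotypes lay within 0.09 of each other at 5 and 10 weeks. At 50 weeks the null level was 1.40-fold lower after scaling. The unscaled signals there were nearly equal, and the 75th percentile was 402.8 units on the null and 289.4 units on the wild-type array. Over the ages the log2 difference was -0.13 ± 0.16 (SE), with a limma adjusted p of 0.656, and 0.049 without the pair of 50 weeks. With age Lgr5 was 2.21-fold lower at 50 than at 5 weeks in null mucosa and 1.49-fold lower in wild-type mucosa. The log2 difference of 50 minus 5 weeks over both genotypes was -0.86 ± 0.20 (SE), with a limma p of 0.0122 and an adjusted p of 0.221, and with normexp background correction it was -0.56.

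Lgr5, Tnfrsf19 and Lrig1 were lower at 50 weeks than at 5 and at 10 weeks in both genotypes. That is 3 of 8 members, where 17.7% of all genes showed this order. In limma's F test over age, 2 members, Tnfrsf19 and Lgr5, had an unadjusted p under 0.05, against 13.7% of all genes, and 0 of 8 had an adjusted one, against 0.0112% of all genes. The median of 50 minus 5 weeks was -0.49 over the 8 members and -0.04 over all genes tested. In the same arrays all 6 chief cell and all 8 parietal cell markers were lower at 50 than at 5 weeks in both genotypes, and all 9 markers of dividing cells were higher. Of other lists, 5 of 6 pancreas and 4 of 5 leukocyte markers were lower in both genotypes, with 0 higher in both. Of the antral and gland mucous markers, 6 of 8 were higher in both and 0 lower. The share of all genes with these orders of 50 and 5 weeks was not computed. The median log2 difference of 50 minus 5 weeks was -1.49 in null and -0.83 in wild-type mucosa for chief cells, and -1.51 in null and -0.79 in wild-type mucosa for parietal cells. For dividing cells it was 1.30 in null and 1.89 in wild-type mucosa, and for pancreas -4.485 in null and -2.03 in wild-type mucosa. The part of any of these markers in the age difference was not tested.

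Prom1 (CD133) was the member with the clearest separation. It encodes a membrane glycoprotein of apical protrusions that is used as a progenitor marker and is also made by other epithelial cells. By its brighter probe it had 8266, 14480 and 24053 units at 5, 10 and 50 weeks in null mucosa, against 6811, 9387 and 7922 units in wild-type mucosa. The scaled levels were 5.03, 5.47 and 5.90 in null mucosa and 4.73, 4.72 and 4.77 in wild-type mucosa. All 3 null mice were above all 3 wild-type mice, as in 12.5% of all genes, and the wild-type mice lay within 0.06 of each other. The null level was 1.23-fold higher at 5 weeks, 1.68-fold higher at 10 weeks and 2.18-fold higher at 50 weeks. At 50 weeks, 2% of the genes measured on both arrays were at least 2-fold higher in null mucosa. Over the 3 ages the log2 difference was 0.73 ± 0.20 (SE), with a limma p of 0.0202 and an adjusted p of 0.169, and with 1 age pair left out it was 0.53 to 0.94.

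The second Prom1 probe gave nearly the same differences at a lower brightness. It had 172, 281 and 584 units in null mucosa and 135, 179 and 192 units in wild-type mucosa, which is 1.29-fold, 1.71-fold and 2.19-fold higher in null mucosa at 5, 10 and 50 weeks. The 3 null levels stood in ascending order of age by both probes, as did those of Rnf43, and 21.9% of all genes had that order. Whether the genotype difference moved with age was tested as a trend with log2 of age. The slope of the Prom1 log2 difference was 0.23 ± 0.10 (SE) per doubling of age, with a limma p of 0.0841 and an adjusted p of 0.9996. No member passed this trend test at an unadjusted p under 0.05, against 2.82% of all genes.

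Most markers of dividing cells, fibroblasts and antral and gland mucous cells were also higher in null mucosa. All 9 genes of dividing cells were higher at all 3 ages, with a summed level of 28.9 to 67.1 in null mucosa and 15.7 to 50.4 in wild-type mucosa. Of 7 fibroblast genes, 5 were higher at all ages, with a sum of 20.9 to 27.4 in null mucosa and 13.3 to 21.4 in wild-type mucosa. Of 8 genes of antral and gland mucous cells, 7 were higher at all ages, with a sum of 1153 to 1756 in null mucosa and 439 to 1021 in wild-type mucosa. The other gene, Gast, the antral hormone gastrin, had 5263, 2817 and 399.96 units at 5, 10 and 50 weeks in null mucosa and 1571, 7040 and 9359 units in wild-type mucosa. Of all genes tested, 26.1% were higher at all 3 ages. Every gene of these 3 lists was well above background on at least 1 array. Their part in the Prom1 difference was not tested.

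**Figure D2:**
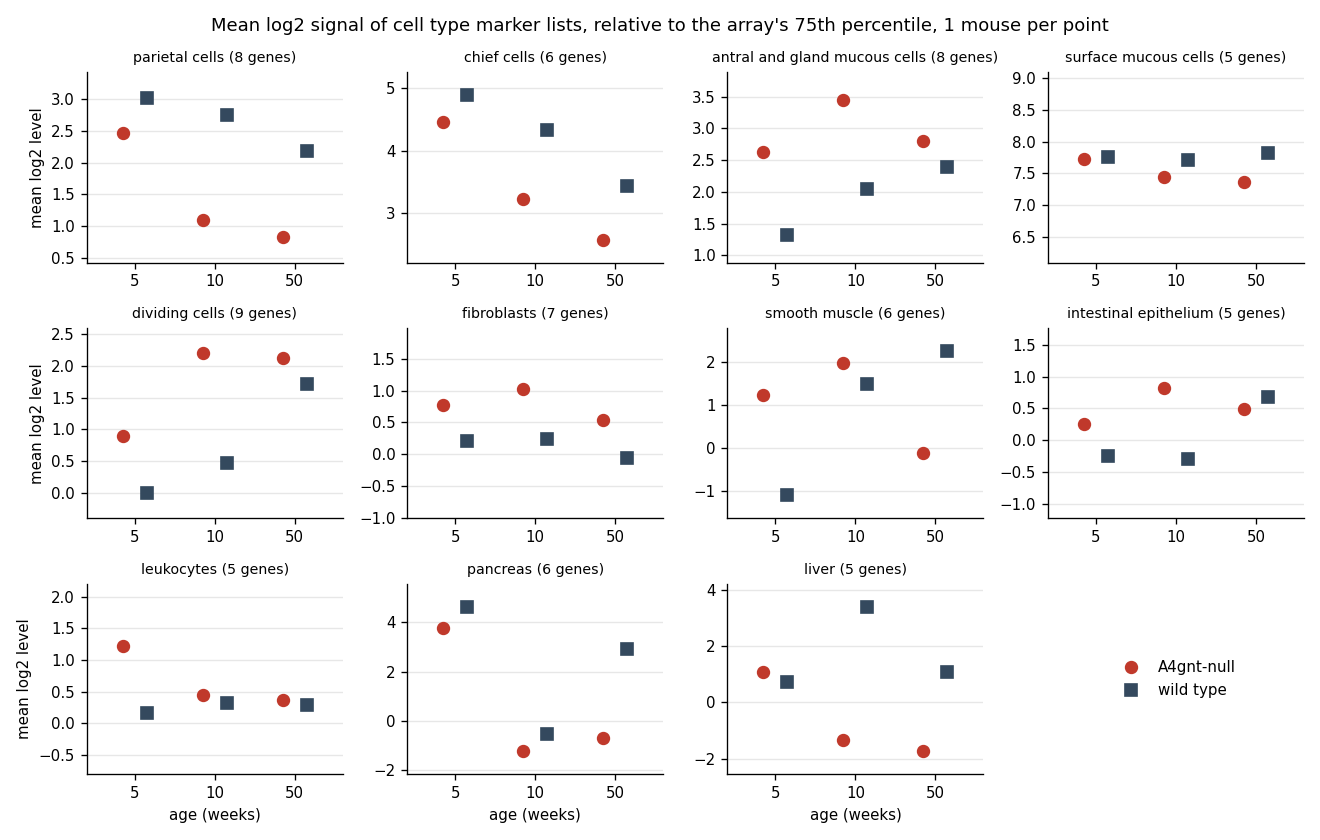
Mean log2 level of the tested genes of each of 11 marker lists (y) by age in weeks (x), with A4gnt-null mice as circles on the left and wild-type mice as squares on the right, 1 mouse per point. Parietal and chief cell markers lie lower in null mucosa at each age, markers of dividing cells, fibroblasts and antral and gland mucous cells lie higher, and pancreas, liver and smooth muscle markers vary between single mice.

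Axin2 and Rnf43 are both induced by Wnt signals and act back on the pathway. Axin2 is a scaffold of the complex that destroys beta-catenin, and it was close to background in nearly every mouse. By the base-4196 probe it had 95.6, 11.2 and 14.9 units at 5, 10 and 50 weeks in null mucosa and 11.9, 20.6 and 4.88 units in wild-type mucosa. The signal was well above background on 3 of 6 arrays, those of the null mice of 5 and 50 weeks and of the wild-type mouse of 10 weeks. One array, that of the null mouse of 5 weeks, stood far above the others, and the null level there was at least 8.14-fold higher. The base-1971 probe did not show this. It had 7.81, 11.7 and 17.6 units in null mucosa and 13.7, 11.2 and 13.7 units in wild-type mucosa, and at 5 weeks the null level was at least 1.27-fold lower by it. This probe too was well above background on 3 of 6 arrays, and at 5 weeks on the wild-type array alone, where the lowest such signal was 11.5 units. Its direction at 5 weeks thus rests on signals near background, and what it lacks is the high null signal of the base-4196 probe. Over the 3 ages the base-4196 probe gave a log2 difference of 1.13 ± 0.77 (SE), with a limma adjusted p of 0.412, and 0.19 without the pair of 5 weeks. The base-1971 probe gave -0.24 ± 0.23 (SE) over the 3 ages, the opposite sign.

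Rnf43, the ligase that takes Frizzled off the cell surface, was well above background in every mouse. It had 473, 701 and 888 units at 5, 10 and 50 weeks in null mucosa and 763, 747 and 551 units in wild-type mucosa. The null level was 1.59-fold lower at 5 weeks, 1.02-fold higher at 10 weeks and 1.16-fold higher at 50 weeks. Its scaled levels stood in opposite order with age in the genotypes, at 0.90, 1.10 and 1.14 in null mucosa and 1.57, 1.06 and 0.93 in wild-type mucosa. The change in the difference was 0.23 ± 0.12 (SE) per doubling of age on the log2 scale, with a limma p of 0.125. The log2 difference over the ages was -0.14 ± 0.22 (SE), with a limma adjusted p of 0.713, and 0.12 without the pair of 5 weeks.

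Lrig1, a membrane protein that restrains ErbB receptors and marks progenitor cells of the mouse corpus, differed in opposite directions at 5 and 10 weeks. By its brighter probe it had 1195, 925 and 934 units at 5, 10 and 50 weeks in null mucosa and 749, 1535 and 671 units in wild-type mucosa. The null level was 1.62-fold higher at 5 weeks and 1.52-fold lower at 10 weeks, and at 50 weeks it differed by -0.0015 on the log2 scale. The other probe had 628, 536 and 527 units in null mucosa and 466, 850 and 409 units in wild-type mucosa, with the same directions at 5 and 10 weeks. Over the 3 ages the log2 difference was 0.03 ± 0.28 (SE), with a limma adjusted p of 0.956, and -0.30 without the pair of 5 weeks.

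Ascl2, a transcription factor of intestinal stem cells, went the other way at the same ages. It had 185, 487 and 485 units at 5, 10 and 50 weeks in null mucosa and 311, 222 and 276 units in wild-type mucosa. The null level was 1.65-fold lower at 5 weeks, 2.39-fold higher at 10 weeks and 1.26-fold higher at 50 weeks. Of the genes measured on both arrays at 10 weeks, 4.3% lay 2-fold or more above wild type in null mucosa and 5.26%, which include Tnfrsf19, 2-fold or more below it. The log2 difference over the ages was 0.29 ± 0.41 (SE), with a limma adjusted p of 0.694, and -0.20 without the pair of 10 weeks.

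Bmi1, a ring-finger protein of the Polycomb repressive complex PRC1, was the steadiest member. It had 411, 371 and 477 units at 5, 10 and 50 weeks in null mucosa and 344, 478 and 353 units in wild-type mucosa. The 6 scaled levels spanned 0.52 on the log2 scale, the smallest span of the 8 genes by their brighter probe. The genotype difference was -0.0013 ± 0.15 (SE), with a limma adjusted p of 0.996, and 0.12 without the pair of 10 weeks. Its second probe had 109, 110 and 113 units in null mucosa and 98.8, 143 and 102 units in wild-type mucosa. By that probe the difference over the 3 ages was -0.14 ± 0.15 (SE), also within its error.

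**Figure D3:**
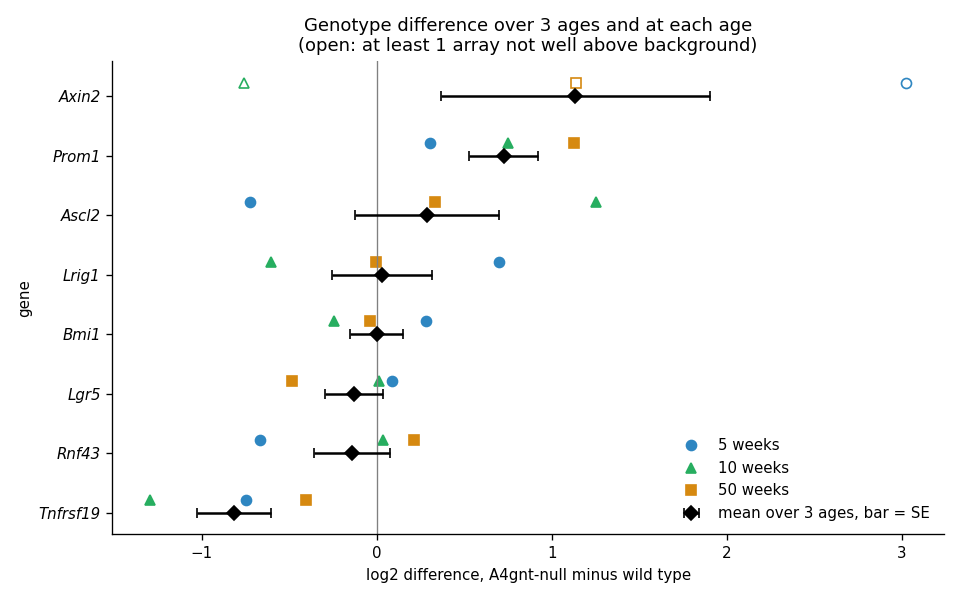
Log2 difference of A4gnt-null minus wild type (x) for each gene (y), at each age as coloured points and over the 3 ages as a diamond with its SE; open points rest on at least 1 array that was not well above background. Prom1 lies above 0 and Tnfrsf19 below 0 at all 3 ages, and the ages of Lrig1, Ascl2, Rnf43, Lgr5, Bmi1 and Axin2 fall on both sides of 0.

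At single ages, 7 members were measured on both arrays at each age, which gives 21 pairs of mice, and 3 pairs were at least 2-fold apart. At 5 weeks that was 0 of 7 members, against 8.39% of all genes. At 10 weeks it was 2 of 7, Tnfrsf19 and Ascl2, against 9.56% of all genes, and at 50 weeks 1 of 7, Prom1, against 6.3%. These counts set 1 mouse against 1 mouse and carry no test.

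**Figure D4:**
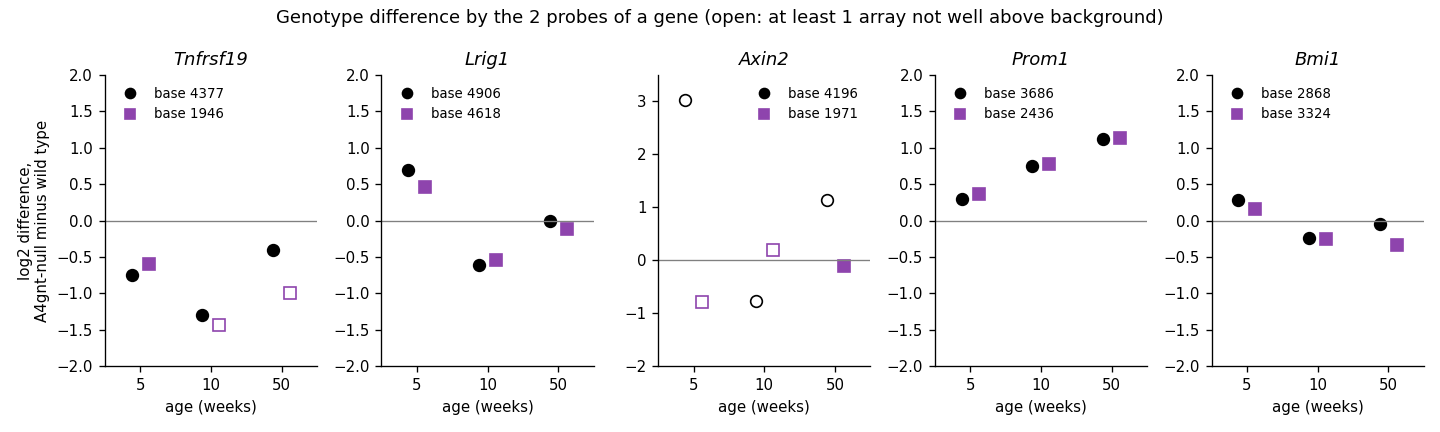
Log2 difference of A4gnt-null minus wild type (y) by age in weeks (x) for the 5 genes with 2 probes, the brighter probe as circles and the other as squares, each named by the base of the transcript where it starts. The pairs of Lrig1, Prom1 and Bmi1 lie close together, those of Tnfrsf19 do so at 5 and 10 weeks but give -0.40 and, not well above background, -0.99 at 50 weeks, and those of Axin2, many of them open because an array was not well above background, lie on opposite sides of 0.

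The other genes of the pathway were read from 9 lists, and limma gave 0 genes of any list an adjusted p under 0.05. Of 21 Wnt ligands and secretion genes, 8 were tested and 13 were too dim. Wnt4, a ligand made by epithelium and stroma, had 59.7, 14.8 and 13.5 units at 5, 10 and 50 weeks in null mucosa and 176, 141 and 58.5 units in wild-type mucosa. It was lower in null mucosa at every age, with a log2 difference of -2.42 ± 0.34 (SE) and a limma adjusted p of 0.126. The other ligands with large differences were Wnt9a at -1.04 ± 0.20 and Wnt5a, a stromal ligand that mostly signals without beta-catenin, at 0.73 ± 0.13. At an unadjusted p under 0.05, limma called 2 of the 8 higher, Wnt5a and Wnt11, and 2 lower, Wnt4 and Wnt9a, against 11% and 12.6% of all genes, and their median difference was -0.11.

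Of the R-spondins and their receptors, the ligands and partners of Lgr5 and Rnf43, 4 of 7 were tested. Rspo1 differed by -0.71 ± 0.36, Rspo3 by 0.27 ± 0.58 and Znrf3, the partner of Rnf43, by -0.49 ± 0.18 on the log2 scale. Single pairs weighed on all 3: Rspo3 was at -0.47 without the pair of 5 weeks, Rspo1 at -0.43 without that of 50 and -1.20 without that of 10 weeks, and Znrf3 at -0.30 without that of 5 weeks. Limma called Znrf3 alone at an unadjusted p under 0.05, with an adjusted p of 0.209. Of 16 Wnt receptors 14 were tested, with 2 higher (Ror2 and Fzd9) and 2 lower (Fzd10 and Fzd4) at an unadjusted p under 0.05. At that p, 11% of all genes were higher and 12.6% lower. Ror2, a receptor for Wnt5a, had 223, 532 and 395 units in null mucosa and 65.1, 194 and 165 units in wild-type mucosa at 5, 10 and 50 weeks. All 3 null mice were above all 3 wild-type mice for Ror2, as in 12.5% of all genes. Its log2 difference was 1.39 ± 0.24. Among the Frizzled receptors the largest differences were Fzd9 at 1.02 ± 0.37 and Fzd10 at -0.96 ± 0.11, and Fzd9 was at 0.54 without the pair of 5 weeks. The median of the 14 receptors was -0.05.

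The counts of this paragraph stand against 11% of all genes higher and 12.6% lower at an unadjusted limma p under 0.05. Of 16 secreted inhibitors 7 were tested, with 1 higher (Dkk3, at 0.67) and 2 lower (Sostdc1 and Notum) at an unadjusted p under 0.05 and a median of 0.19. The largest differences were all lower in null mucosa: Sostdc1 at -1.05 ± 0.24, Notum, an enzyme that inactivates Wnt ligands, at -0.87 ± 0.25, and Sfrp5 at -0.73 ± 0.35, or -0.26 without the pair of 50 weeks. In the relay around beta-catenin, 20 of 22 genes were tested, with 0 higher and 5 lower at an unadjusted p under 0.05 and a median of -0.12. Its largest differences were the co-repressors Tle1 at -1.10 ± 0.38, Tle2 at -0.89 ± 0.11 and Tle4 at -0.80 ± 0.13, and the other two at that p were Bcl9l at -0.37 and Dvl1 at -0.36. All 3 null mice lay below all 3 wild-type mice for Tle2, as in 11.3% of all genes. Tle2 had 60.3, 61.7 and 71.6 units in null mucosa and 116, 121 and 95.9 units in wild-type mucosa.

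Of 16 other Wnt target genes 14 were tested, with a median of -0.02. At an unadjusted p under 0.05 limma called 1 higher and 4 lower, against 11% and 12.6% of all genes. The higher one was Cd44, a cell surface receptor for hyaluronan that leukocytes and stroma also carry. It had 596, 2116.5 and 1999 units at 5, 10 and 50 weeks in null mucosa and 182, 570.5 and 504 units in wild-type mucosa. That was 3.33-fold, 4.04-fold and 2.85-fold higher, with a log2 difference of 1.75 ± 0.15 and a limma adjusted p of 0.0967. The lower ones were Notum and Znrf3, given above, Rgmb at -0.46 and Nkd2, a Wnt antagonist, at -0.35. Axin2, Lgr5 and Rnf43 thus stood beside target genes that differed in both directions.

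Among the 9 pathway lists, that of other gastric stem and isthmus genes had the most genes higher in null mucosa, 6 of 17 tested at an unadjusted p under 0.05, against 11% of all genes, with 1 lower and a median of 0.16. Smoc2, a matrix protein of stem cells at the gland base, had 323, 1295 and 697 units in null mucosa and 99.5, 171 and 309 units in wild-type mucosa. Its log2 difference was 1.82 ± 0.49 and that of Aqp5, a water channel of antral gland cells, 1.77 ± 0.37. Iqgap3, a scaffold found in dividing isthmus cells, differed by 1.15 ± 0.39. Without the pair of 10 weeks Smoc2 was at 1.21 and Iqgap3 at 0.62. The lower one was Bhlha15 (Mist1), a transcription factor of chief cells and one of the chief cell markers, at -1.11. Aqp5 is also one of the antral and gland mucous markers described above. Among partners of Bmi1 in PRC1, 16 of 18 were tested, with 0 higher and 3 lower at an unadjusted p under 0.05. The shares of all genes at that p were 11% higher and 12.6% lower. Among the 3 lower partners were Cbx2 at -0.63 ± 0.11 and Cbx6 at -0.45 ± 0.12. Around Lrig1, 5 of 6 ErbB and Lrig family genes were tested, with Lrig3 lower at -0.46 ± 0.16 and Egfr at 0.13 ± 0.13 and Lrig2 at -0.07 ± 0.15 within their error. Without the pair of 50 weeks Egfr was at 0.03 and Lrig2 at 0.06.

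**Figure D5:**
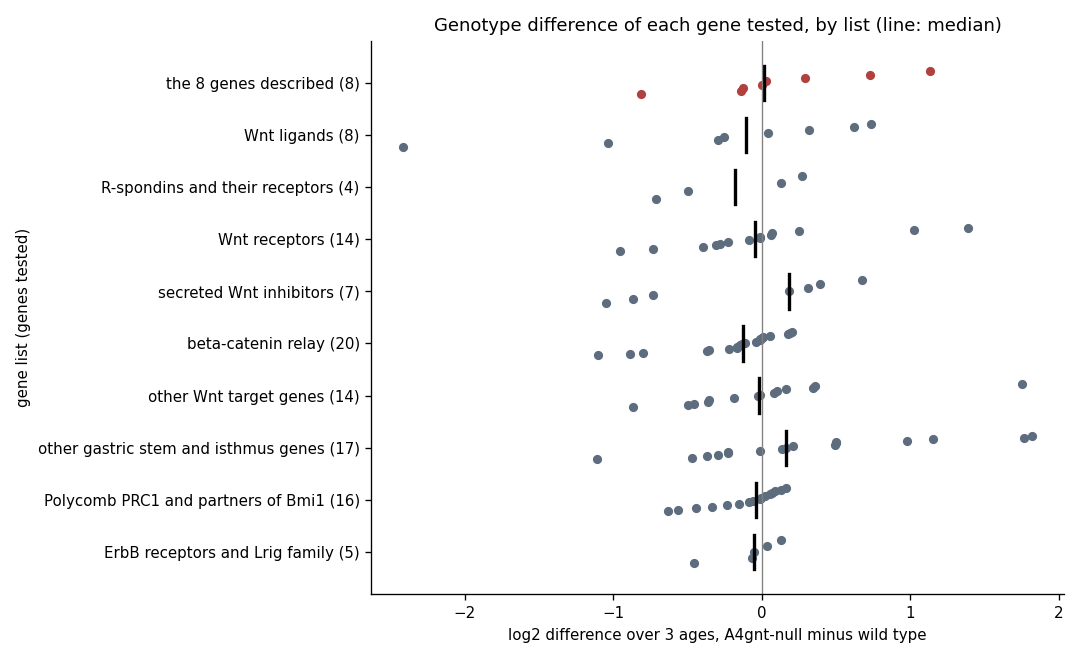
Log2 difference over the 3 ages, A4gnt-null minus wild type (x), of each tested gene of the 8 genes described and of 9 pathway lists (y), with the number tested beside each name and a line at the median. Medians lie between -0.18 and 0.19, and single genes such as Wnt4 at -2.42 and Cd44 at 1.75 lie far from the rest of their lists.

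The profiles most like each member were found over the 6 arrays, as the root mean square distance between log2 levels centred on their own means. It was computed among 15966 genes that were above background on all arrays, for the 7 members that were too. For Prom1 the nearest were Cd74, the invariant chain of MHC class II, at 0.067 and Cd38, a surface enzyme of leukocytes, at 0.079. In all, 61 genes lay within 0.2 of Prom1. Because the 2 were chosen by their profile, their log2 genotype differences, 0.70 and 0.79, were bound to lie near that of Prom1. Of 5 leukocyte markers tested, 1 was higher in null mucosa at all 3 ages, against 26.1% of all genes. The median log2 genotype difference of these markers was 0.14. For Tnfrsf19 the nearest were Prnd at 0.20 and Rnf125 at 0.25, and no gene lay within 0.2 of it. Lgr5 had 61 genes within 0.2, led by an unnamed transcript and Fjx1 at 0.11. Lrig1 had 77, led by Aopep at 0.087 and an unnamed transcript, and Ascl2 had 33. For Ascl2 the nearest was a probe of repeated sequence assigned to Vash1, whose identity is uncertain, and next was Cacna2d2 at 0.12. Rnf43 lay nearest to Zfp957 at 0.046 and D5Wsu152e at 0.048, with 1588 genes within 0.2. Bmi1 lay nearest to Atp6v1f at 0.014 and Eapp at 0.026. With 6 arrays such distances describe these mice. A flat profile such as that of Bmi1, with 3279 genes within 0.2, has many near neighbours.

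RefSeq start sites on GRCm38.p6 were given for 7 of the 8 genes, in 10 windows of 250 bases before a start. They were searched on both strands for CTTTGA and CTTTGT, core letters of TCF sites. One window of the 10 held a match, against 27.6% of 32851 windows over all genes. It lies before a start of Tnfrsf19, at chr14:61037988-61038237 on the minus strand, and is shown because that gene had the largest age difference among the members measured on all arrays. The capitals mark the match, which reads on the opposite strand of the window 201 bases before the start.
Tnfrsf19, second start: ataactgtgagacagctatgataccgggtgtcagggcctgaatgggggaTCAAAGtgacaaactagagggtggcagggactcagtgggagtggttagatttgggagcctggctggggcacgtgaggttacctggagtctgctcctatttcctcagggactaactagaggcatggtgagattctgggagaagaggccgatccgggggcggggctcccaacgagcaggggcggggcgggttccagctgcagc
The other Tnfrsf19 window and the windows of the other genes held neither word. A match of 6 letters describes the sequence and shows no binding.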

How the data were processed

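RNA of 6 gastric mucosa samples, 1 mouse per genotype and age, was hybridised to one-colour Agilent arrays after Cy3 labelling, per the labels. The deposited scanner files hold the fluorescence intensity of each spot, from Agilent Feature Extraction 10.7.1.1 per the file headers, with a background-subtracted processed signal. A second deposited file holds log2 values of the same probes, equal to the log2 processed signal plus a constant of each array (-7.88 to -8.54) within 0.01 for 100% of 39399 probes. Its column medians were -3.56 to -3.89, and it was used as an alternative. What its constants stand for is not given in the sources used here.

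Flagged spots (98 to 144 per array) were dropped, none were saturated, and 54.8% to 59.2% of spots were well above background, the lowest such signal being 10.1 to 11.6 units. The log2 signal minus the log2 75th percentile was averaged over spots of a probe. Probes took their names from a RefSeq table through an accession (26044), a symbol (3194) or a synonym (930), and the name on the array stood for 9231. The probe with the highest mean signal stood for a gene. Genes well above background on at least 3 of 6 arrays were tested. The test was limma 3.58.1 in R 4.3.3, with genotype and age as factors (2 residual and 2.12 prior degrees of freedom), and genotype crossed with log2 age for the trend. P-values were adjusted by Benjamini and Hochberg over all 17858 genes. Where 1 array of a pair was not well above background, the fold is a bound: the dim array's value was set to the higher of its own signal and the lowest signal called well above background there. The fit was also run on simulated arrays of the same layout. These held no age or slide effect, so they do not bear on the mixing of slide with genotype.

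Named were all 8 genes, the 3 genes of each pathway list with the largest difference, and the 2 nearest profiles of each member measured on all arrays. Wnt11, Fzd4, Dkk3, Dvl1, Bcl9l, Nkd2, Rgmb and Bhlha15 were named outside this rule, after their values were seen, to complete counts. A gene that the rule would name is not reported here. The 11 marker lists are given by counts, means and sums of levels only. The members and lists were chosen with earlier results of these data known. The labels give 1 mouse per genotype and age, so p-values measure the spread over the 3 age pairs. Alternatives were quantile and median scaling, normexp background, the deposited table, other filters and probe rules, a variance trend, no age term, age in ranks and leaving out each age pair.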

Additional observations from a re-analysis of the deposited data

Results flagged for a closer look

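Lrig1 and Ascl2 differed between the genotypes in opposite directions at 5 and 10 weeks by at least 0.5 on the log2 scale, in 1 mouse against 1 mouse at each age. Lrig1 was higher in null mucosa at 5 weeks, by 0.697 on the log2 scale, and lower at 10 weeks, at -0.605. Its second probe gave 0.45 and -0.54. Ascl2 was higher in null mucosa at 10 weeks, by 1.26, and lower at 5 weeks, at -0.725. The difference between those 2 ages was not tested. The trend of the genotype difference with log2 of age gave a limma p of 0.556 for Lrig1 and 0.524 for Ascl2.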

How the results depend on the processing

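No member had a limma adjusted p under 0.05 for genotype, 50 against 5 weeks or trend under any alternative run. The F test and the other contrasts of age were not compared between settings. The number of pairs at least 2-fold apart at 1 age was 2 to 3. Tnfrsf19 stayed below 0 (-1.02 to -0.57, adjusted p 0.0806 to 0.552) and Prom1 above 0 (0.53 to 0.94, adjusted p 0.084 to 0.436) under all 13 settings. Axin2 was at 0.19 to 2.08 under the 12 that could measure it, all by its base-4196 probe or a mean that holds it, while its base-1971 probe gave -0.24. The difference of 50 minus 5 weeks ran from -1.97 to -1.08 for Tnfrsf19, -0.86 to -0.56 for Lgr5 and -2.41 to -0.86 for Axin2, each smallest in size with normexp. Median scaling raised the log2 differences at 50 weeks, from -0.48 to -0.27 for Lgr5, from -0.40 to -0.19 for Tnfrsf19 and from 1.125 to 1.34 for Prom1. The genotype difference over the 3 ages of members near 0 changed sign. Median scaling moved the median of all genes by 0.16 and gave 0.030 for Lgr5, 0.16 for Bmi1 and 0.018 for Rnf43. Bmi1 was also 0.0074 with quantile normalization, 0.040 with normexp and 0.028 with the deposited table, and Lrig1 was -0.018 with the mean of its probes. With 1 age pair left out, Lgr5 ran from -0.24 to 0.049, Lrig1 from -0.30 to 0.35, Ascl2 from -0.20 to 0.79, Bmi1 from -0.14 to 0.12 and Rnf43 from -0.32 to 0.12. For genotype, 0 genes were called over the whole array in the main run. They numbered 198 with normexp, 41 with a variance trend, 6 with no age term and 1 with quantile normalization. For 50 against 5 weeks 2 were called, but 13 with normexp and 5 with a variance trend. With no filter, or with a filter on all 6 arrays, 0 were called for 50 against 5 weeks. The causes of these changes were not tested. Signals near background limit Axin2 and the dimmer Tnfrsf19 probe, and 1 mouse per genotype and age limits every difference.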
